A study of Mus musculus with 11 samples.

Results

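Pairs of H3K4me2 nucleosomes that flank a gap, and that lie away from every called CDX2 and HNF4A peak, were followed from wild-type jejunal villi into villi lacking these factors. Neighbouring wild-type nucleosomes whose centres lay 250 to 450 bp apart were taken as a pair, using nucleosomes with a score of 52 or more. The score is 10 times the −log10 of a p-value as deposited. The pairs were selected on this score and spacing in the wild-type list and on the positions of called factor peaks, so those values describe the choice. A pair was kept when its midpoint lay more than 1 kb from the centre of every peak in 5 CDX2 and HNF4A lists. This gave 35478 pairs, 59.7% of the 59381 wild-type pairs of that spacing. The other 23903 pairs had a factor peak within 1 kb, of CDX2 only at 3714, of HNF4A only at 15006 and of both at 5183.

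H3K4me2, dimethylation of histone H3 at lysine 4, marks the nucleosomes of active promoters and enhancers. At many such elements a pair of marked nucleosomes borders a stretch that is depleted of nucleosomes, where transcription factors bind. CDX2 is a homeodomain factor and HNF4A a nuclear receptor, and both bind enhancers of intestinal epithelial cells. Loss of a factor can be read at such an element as a nucleosome appearing between the flanks, or as loss of the marked flanks themselves. The question asked here was how often either was seen where neither factor had been called.

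H3K4me2 was mapped with 1 library each in Cdx2 knockout, in Hnf4a knockout, in a pair of double knockouts and in wild type. CDX2 was mapped in Hnf4a knockout with 1 library and in wild type with 2, and HNF4A in Cdx2 knockout and in wild type with 1 each. All libraries came from villus epithelium of the jejunum. Mice with a strain label were 129xC57BL6 of mixed background. Both double-knockout libraries carry labels that contradict each other on which gene was deleted together with Cdx2, so they are called here by title, the Cdx2-Cdx1-titled and the Cdx2-Hnf4a-titled library. Every label of both has Cdx2 deleted. The age of the mice, the Cre line or other means of deletion, and the share of cells that still carry the genes were not stated in the labels. ChIP DNA was pooled for sequencing, per the labels' protocols. The labelled tissue and the deletions were not checked against marker genes, because no annotation of the files' genome build, mm9, was used here.

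At a score of 52 or more the lists held 256794 nucleosomes in Cdx2 knockout, 250282 in Hnf4a knockout, 281957 in the Cdx2-Cdx1-titled library, 275915 in the Cdx2-Hnf4a-titled library and 245431 in wild type. Read depth is unknown. With 1 library per condition there is no spread between replicates, and no p-value between conditions is given. The 95% intervals below are Clopper-Pearson for shares and Newcombe for differences of shares, and they cover counting error only. They also treat pairs as separate, although 11874 pairs (33.5%) shared a nucleosome with another one. A lost flank means that no nucleosome was called within 50 bp of it. Gaps, open pairs and gained centres likewise refer to called H3K4me2 nucleosomes only. A nucleosome without the mark, or one under the score limit, would not be seen. A gained centre can therefore be a gain of mark or of score at a nucleosome already there. Fewer cells carrying the mark and less mark per cell cannot be told apart in these samples.

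The 35478 pairs scored slightly below pairs with a factor peak, and their spacing was set by the rule. Their median spacing was 320 bp, with 5% under 255 bp and 5% over 425 bp, and the uncovered gap between the flanks had a median of 220 bp. The commonest distance between neighbouring nucleosomes in the whole wild-type list was shorter, 185 bp, and 24.2% of all neighbours were spaced as the pairs are. The weaker flank had a median score of 156.4, against 178.2 for pairs with a factor peak, and its middle range ran from 84.4 to 354.5. The stronger flank scored 2.31 times the weaker at the median. Together the pairs held 64298 nucleosomes, 26.2% of the wild-type list. The nearest factor peak was 7.78 kb away at the median. Wild-type HNF4A peaks alone removed 7179 pairs, and the CDX2 peaks of wild-type libraries 1 and 2 alone removed 2467 and 272. The limit of 1 kb divided pairs of similar score: the 823 pairs with the nearest peak just beyond it had a median weaker score of 171.9, and the 814 with a peak just within it had 167.6. Loss of both flanks was 15.3% just beyond and 20.4% just within in the Cdx2-Hnf4a-titled library, and 8.63% and 11.4% in Cdx2 knockout. It was 7.29% and 8.11% in Hnf4a knockout, and 10.7% and 10.8% in the Cdx2-Cdx1-titled library. These shares rest on few pairs and are given without intervals, so a step at the limit is not shown. In 135 pairs the wild-type list held a nucleosome between the flanks that scored under 52.

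Aligned on their wild-type midpoints, the pairs kept a clear pattern of peaks and gaps in all 4 knockout libraries. Flank height was lower in every knockout library. In the bin 140 to 160 bp right of the midpoint there were 18.8 nucleosome centres per 100 pairs in Cdx2 knockout and 19.5 in Hnf4a knockout. There were 18.4 in the Cdx2-Cdx1-titled library, 17.4 in the Cdx2-Hnf4a-titled library and 26.2 in wild type. The alignment was made on wild type, which by itself places the wild-type flanks most sharply. At the midpoint a small central peak stood in the knockout libraries, 3.38 centres per 100 pairs in Cdx2 knockout, 3.0 in Hnf4a knockout, 2.56 in the Cdx2-Cdx1-titled library and 2.86 in the Cdx2-Hnf4a-titled library. The wild-type value of 0 there follows from how pairs were chosen. The next nucleosome outward was called at similar shares. One was found 190 bp beyond the left flank, within 50 bp, at 45.7% of pairs in Cdx2 knockout, 43.8% in Hnf4a knockout, 44.0% and 44.6% in the libraries titled Cdx2-Cdx1 and Cdx2-Hnf4a, and 45.9% in wild type. The number of nucleosomes within 1 kb of the midpoint averaged 4.93, 4.75, 4.81 and 4.81 in these knockout libraries, in the same order, and 5.06 in wild type. At pairs with a factor peak the same averages were 4.82, 5.18, 4.84 and 4.36, against 5.29 in wild type.

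**Figure D1:**
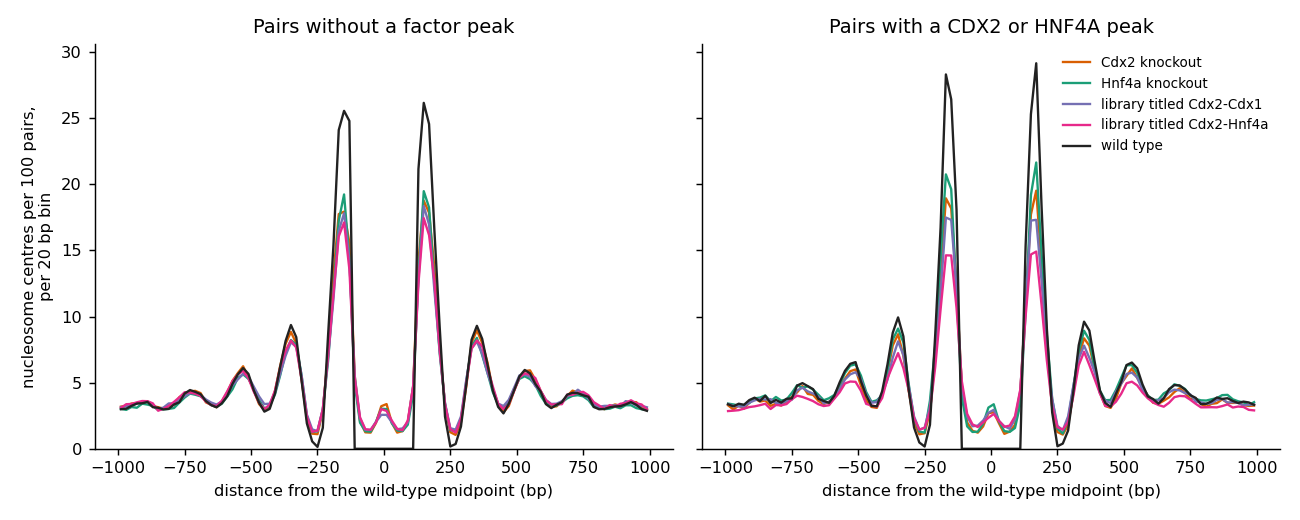
Called nucleosome centres per 100 pairs in 20 bp bins, by distance from the wild-type midpoint, for pairs without (left) and with (right) a CDX2 or HNF4A peak within 1 kb. Colours are the 4 knockout libraries and black is wild type. Without a factor peak the knockout lines stay close together at the flanks, between 17.4 and 19.5 in the bin 140 to 160 bp right of the midpoint, and rise to between 2.56 and 3.38 in the bin 0 to 20 bp.

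Most pairs without a factor peak stayed as they were: both flanks kept and nothing called between them. This open state was seen at 59.1% of pairs in Cdx2 knockout, where 57.6% of all wild-type pairs were in that state. It was seen at 54.5% in Hnf4a knockout (all pairs 56.5%), at 52.4% in the Cdx2-Cdx1-titled library (all pairs 50.8%) and at 51.9% in the Cdx2-Hnf4a-titled library (all pairs 47.9%). Loss of 1 flank was the commonest departure. It was found at 25.1%, 31.5%, 31.4% and 27.3% of pairs in Cdx2 knockout, Hnf4a knockout and the libraries titled Cdx2-Cdx1 and Cdx2-Hnf4a. The shares among all wild-type pairs were 26.3%, 30.3%, 32.1% and 28.5%. The weaker flank was the one more often lost: in Cdx2 knockout 26.7% of weaker and 13.6% of stronger flanks were gone, and in Hnf4a knockout 31.2% and 15.0%. The libraries titled Cdx2-Cdx1 and Cdx2-Hnf4a gave 33.1% and 17.7%, and 33.5% and 19.7%. Counted singly, 20.2% of flanks were lost in Cdx2 knockout, 23.2% in Hnf4a knockout, 25.5% and 26.7% in the libraries titled Cdx2-Cdx1 and Cdx2-Hnf4a. Of all wild-type nucleosomes 24.5%, 25.5%, 29.0% and 31.7% were lost in these libraries, so flanks of such pairs were lost less often than the nucleosomes at large. Flanks were not counted singly over all wild-type pairs. The difference is therefore not shown to be particular to pairs without a factor peak.

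A nucleosome appeared at the centre, within 75 bp of the midpoint, at about the same share of pairs in every knockout library. In Cdx2 knockout 5326 pairs gained one, 15.0% (14.6 to 15.4), where 14.4% of all wild-type pairs did. In Hnf4a knockout it was 5227 pairs, 14.7% (14.4 to 15.1), with 14.9% of all pairs. The Cdx2-Cdx1-titled library had 5096, 14.4% (14.0 to 14.7), with 15.0% of all pairs. The Cdx2-Hnf4a-titled library had 5370, 15.1% (14.8 to 15.5), with 15.2% of all pairs. None of these shares lay far from that of all wild-type pairs. Strict filling, with a centre nucleosome between flanks that were both kept, was found at 8.12% of pairs in Cdx2 knockout (all pairs 7.55%) and at 6.61% in Hnf4a knockout (all pairs 6.82%). It was found at 6.46% in the Cdx2-Cdx1-titled library (all pairs 6.60%) and at 7.76% in the Cdx2-Hnf4a-titled library (all pairs 7.00%). A centre was commoner where 1 flank had been lost, at 22.8% of such pairs in Cdx2 knockout, against 12.1% where both were kept. The same 2 values were 20.5% and 10.8% in Hnf4a knockout, 20.1% and 11.0% in the Cdx2-Cdx1-titled library, and 22.2% and 13.0% in the Cdx2-Hnf4a-titled library. A flank that moved inward by more than 50 bp can be read both as a lost flank and as a centre, so these counts are not independent. Where both flanks were lost the order was mixed, with a centre at 15.0% in Cdx2 knockout, 22.6% in Hnf4a knockout, 16.3% in the Cdx2-Cdx1-titled library and 10.2% in the Cdx2-Hnf4a-titled library.

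Loss of both flanks differed more between libraries than gain of a centre. It was found at 2721 pairs in Cdx2 knockout, 7.67% (7.39 to 7.95), where 8.54% of all wild-type pairs had lost both. In Hnf4a knockout it was 2632 pairs, 7.42% (7.15 to 7.70), and here the share of all pairs was lower, 6.44%. The Cdx2-Cdx1-titled library had 3466, 9.77% (9.46 to 10.1), with 10.5% of all pairs. The Cdx2-Hnf4a-titled library had the most, 4619 pairs or 13.0% (12.7 to 13.4), with 16.6% of all pairs. Part of the loss in Hnf4a knockout lay at low scores, since that list alone reaches below 52 by a wide margin. Of its 16436 lost flanks, 25.9% were present at a score under 52, and 47.7% of its 2632 pairs without flanks had at least 1 flank when all scores were read.

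Pairs were also chosen in each knockout list by the same rule and read in wild type, because choosing in one list favours that list. The Cdx2 knockout list gave 39282 such pairs, Hnf4a knockout 38938, the Cdx2-Cdx1-titled library 48026 and the Cdx2-Hnf4a-titled library 45358. For the centre, the directions were mixed. Wild-type pairs gained a centre in Cdx2 knockout more often than Cdx2 knockout pairs did in wild type, 15.0% against 13.4% (all pairs chosen in Cdx2 knockout 13.8%), a difference of 1.58 points (1.07 to 2.08), or 0.77 points (0.27 to 1.28) with lists cut to equal length. The Cdx2-Hnf4a-titled library went the same way, 15.1% against 12.8% (all its pairs 13.9%), by 2.36 points (1.88 to 2.85), or 0.19 points with an interval that held 0 at equal length. Hnf4a knockout went the other way, 14.7% against 19.0% (all its pairs 18.3%), a difference of −4.25 points (−4.78 to −3.71), which became 8.96 points when its list was read down to its lowest scores. So did the Cdx2-Cdx1-titled library, with 14.4% against 16.1% (all its pairs 17.0%), by −1.72 points (−2.21 to −1.23), or −4.74 at equal length. The lists differed in spacing along the same line. The commonest distance between neighbours was 180 bp in Hnf4a knockout and in the Cdx2-Cdx1-titled library, and 185 bp in Cdx2 knockout, in the Cdx2-Hnf4a-titled library and in wild type. Called positions lie on a grid, and 180 and 185 bp are adjacent values on it. Neighbours closer than 250 bp made up 39.7% and 39.3% of the 2 lists at 180 bp, and 44.0%, 43.9% and 43.5% of the others. The part of list spacing in the centre gain was not tested.

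For the flanks, the reverse reading was higher in every case. Wild-type pairs lost both flanks in Cdx2 knockout at 7.67%, and pairs chosen in Cdx2 knockout had neither flank in wild type at 11.9% (all its pairs 9.45%), a difference of −4.18 points (−4.60 to −3.76). With lists of equal length it was −1.90 points (−2.32 to −1.47). Hnf4a knockout had 7.42% forward and 8.60% in reverse (all its pairs 7.71%), a difference of −1.18 points (−1.57 to −0.79). The Cdx2-Cdx1-titled library had 9.77% forward and 20.8% in reverse (all its pairs 16.9%), a difference of −11.0 points, or −3.87 with lists of equal length. The Cdx2-Hnf4a-titled library had 13.0% forward and 24.2% in reverse (all its pairs 19.9%), a difference of −11.2 points, or −5.09 with lists of equal length. At the main settings, pairs called without a counterpart in the other list were thus commoner in each knockout library than in wild type. For Hnf4a knockout this order turned round, to 0.81 points, when only scores of 100 or more were read. Its interval held 0 with lists of equal length and with no factor peak within 5 kb. The factor lists came from wild type and single knockouts only. The filter on them kept 59.7% of pairs in wild type and a similar share in Hnf4a knockout. In Cdx2 knockout and the libraries titled Cdx2-Cdx1 and Cdx2-Hnf4a it kept 64.9%, 67.2% and 70.8%. Over all pairs, forward and reverse were 8.54% and 9.45% in Cdx2 knockout and 6.44% and 7.71% in Hnf4a knockout. The double-knockout libraries had 10.5% and 16.9%, and 16.6% and 19.9%. The part of the filter was not tested.

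The pairs found in libraries lacking Cdx2 were more often missing from the libraries that carry Cdx2. Pairs chosen in the Cdx2-Hnf4a-titled library had lost both flanks at 9.67% (9.40 to 9.95) in the Cdx2-Cdx1-titled library (all its pairs 8.21%) and at 13.5% in Cdx2 knockout (all pairs 11.2%). In Hnf4a knockout that share was 23.8% (23.5 to 24.2; all pairs 19.8%), close to the 24.2% in wild type. Pairs chosen in the Cdx2-Cdx1-titled library had lost both flanks at 9.53% in the Cdx2-Hnf4a-titled library (all pairs 10.3%) and 13.6% in Cdx2 knockout (all pairs 12.1%). In Hnf4a knockout the share was 18.6% (all pairs 15.2%), against 20.8% in wild type. Pairs chosen in Cdx2 knockout gave 8.49% and 7.98% in the libraries titled Cdx2-Cdx1 and Cdx2-Hnf4a (all pairs 7.89% and 8.98%), against 14.4% in Hnf4a knockout (all pairs 11.9%) and the 11.9% in wild type given above. Pairs chosen in Hnf4a knockout were lost most in the Cdx2-Hnf4a-titled library, at 14.6% (all pairs 18.7%), then in Cdx2 knockout, at 11.5% (all pairs 12.7%). The Cdx2-Cdx1-titled library gave 9.72% (all pairs 11.0%) and wild type 8.60%. Readings that choose pairs in the same list share that list. The lists lacking Cdx2 were also the longer ones. They held 256794 nucleosomes in Cdx2 knockout and 281957 and 275915 in the libraries titled Cdx2-Cdx1 and Cdx2-Hnf4a. Hnf4a knockout had 250282 and wild type 245431. The parts of list length and of the filter on factor peaks in these shares were not tested.

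**Figure D2:**
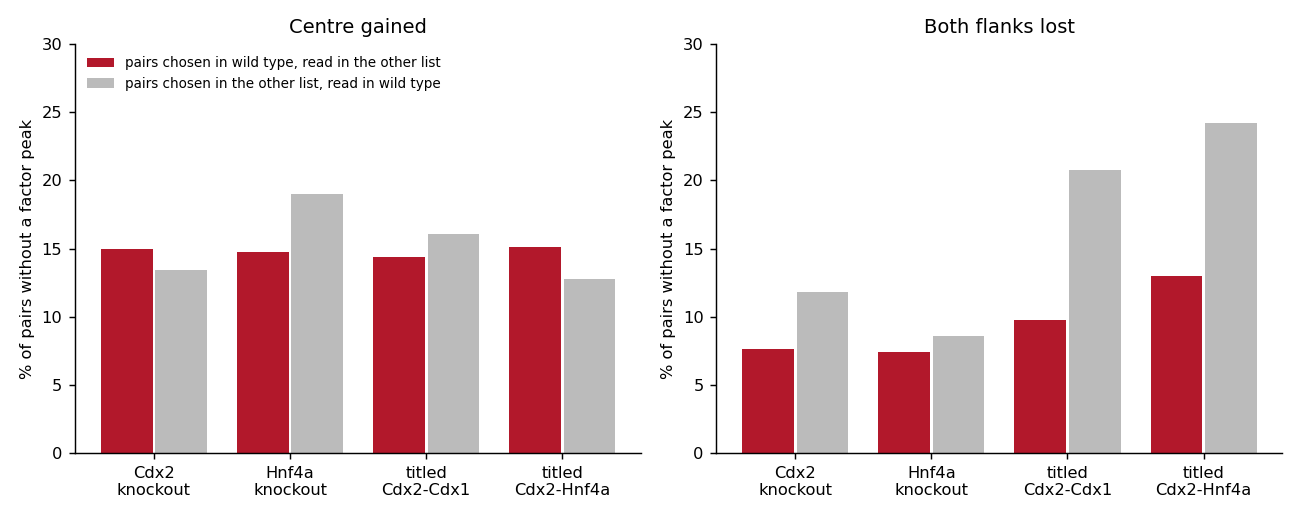
Share of pairs without a factor peak that gained a centre nucleosome (left) or lost both flanks (right), by library. Red bars are pairs chosen in wild type and read in the named library, and grey bars are pairs chosen in that library and read in wild type. The grey bars for both flanks lost, 11.9%, 8.60%, 20.8% and 24.2%, all stand above the red ones, while for the centre 2 stand above and 2 below.

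Set beside all pairs with a factor peak, the pairs without one differed by less than 2 points in centre gain. This pooled value hides larger differences in single classes, score quartiles and spacings. In Cdx2 knockout they gained a centre more often, at 15.0% against 13.5%, a difference of 1.55 points (0.97 to 2.11). Against pairs with CDX2 only, at 12.2%, the difference was 2.82 points (1.66 to 3.9). In the Cdx2-Cdx1-titled library they gained one less often, at 14.4% against 15.8%, by −1.48 points (−2.08 to −0.90), an interval that held 0 at scores of 100 or more and at spacings of 300 to 400 bp. Against pairs with both factors, at 17.1%, it was −2.69 points (−3.80 to −1.63). In Hnf4a knockout and in the Cdx2-Hnf4a-titled library the intervals of the difference held 0, −0.31 points (−0.89 to 0.28) and −0.06 points (−0.65 to 0.52), and the sign turned under some of the alternatives. In the Cdx2-Hnf4a-titled library the classes stood on opposite sides of that value. Pairs without a factor gained a centre more often there than pairs with CDX2 only, by 1.57 points (0.37 to 2.69), and less often than pairs with both factors, by −1.57 points (−2.68 to −0.51). Quartiles of all pairs by weaker flank score also differed. In the lowest quartile, pairs without a factor minus pairs with one stood at 3.27 points (2.12 to 4.39) in Cdx2 knockout, −0.69 in Hnf4a knockout, −0.08 in the Cdx2-Cdx1-titled library and 3.40 (2.26 to 4.53) in the Cdx2-Hnf4a-titled library. The intervals of the middle 2 held 0. In the highest quartile the same differences were −0.15 and 0.22 points in Cdx2 and Hnf4a knockout, with intervals that held 0, and −2.98 (−4.10 to −1.87) and −2.80 (−3.95 to −1.66) in the libraries titled Cdx2-Cdx1 and Cdx2-Hnf4a. The order of the shares also turned with spacing. At 250 to under 300 bp the shares without and with a factor were 7.84% and 9.03% in Cdx2 knockout and 8.57% and 10.3% in Hnf4a knockout. They were 8.91% and 11.4%, and 8.89% and 10.8%, in the libraries titled Cdx2-Cdx1 and Cdx2-Hnf4a. At 350 to under 400 bp they were 21.9% and 16.9%, 20.4% and 18.4%, 19.2% and 18.8%, and 21.4% and 17.3%, in the same order.

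Loss of both flanks separated the classes more clearly. In Cdx2 knockout it was less frequent without a factor peak, 7.67% against 9.84% with one, a difference of −2.17 points (−2.65 to −1.71). This difference in loss of both flanks stood at pairs with CDX2. Pairs with CDX2 only lost both flanks at 15.8% and pairs with both factors at 12.0%, while pairs with HNF4A only stood at 7.63%, 0.04 points from the pairs without a factor (−0.47 to 0.54). Pairs with HNF4A only did lose 1 flank more often, at 27.5% against 25.1% without a factor, a difference of −2.39 points (−3.24 to −1.55). Leaving out the peaks of wild-type CDX2 library 1 brought the difference of −2.17 points in loss of both flanks to −0.85 points. In Hnf4a knockout the order was the other way round. Pairs without a factor lost both flanks at 7.42%, against 5.0% with one, a difference of 2.42 points (2.03 to 2.81), and pairs with HNF4A only lost them at 5.06%. In the Cdx2-Cdx1-titled library the shares were 9.77% and 11.5%, a difference of −1.78 points (−2.29 to −1.27). In the Cdx2-Hnf4a-titled library they were 13.0% and 21.8%, a difference of −8.81 points (−9.44 to −8.18). There each factor class lost more, pairs with CDX2 only 22.4%, with HNF4A only 20.1% and with both 26.5%.

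**Figure D3:**
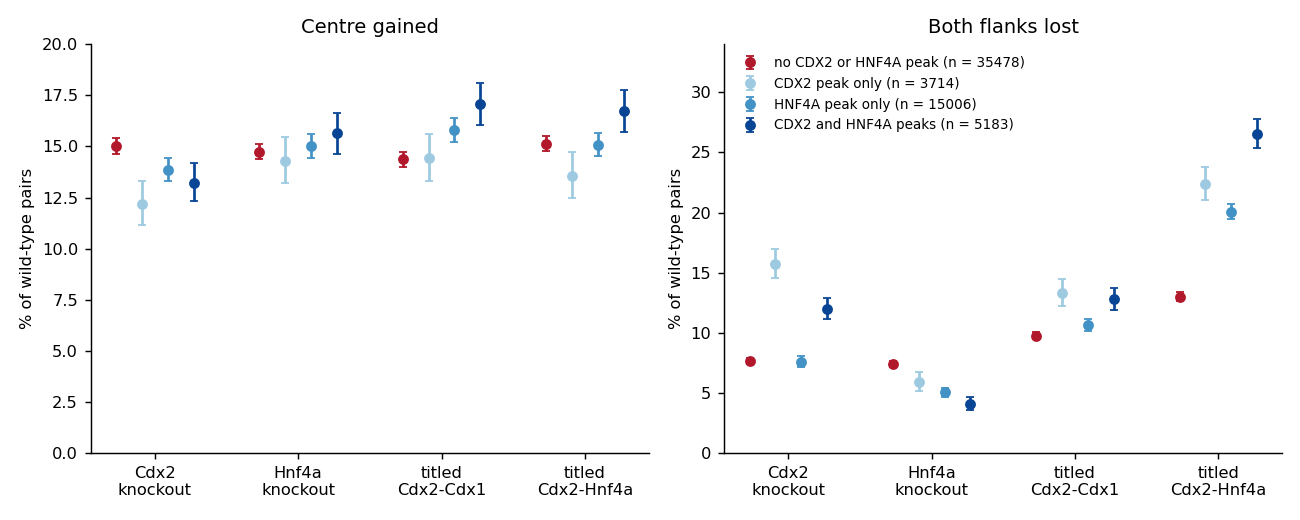
Share of wild-type pairs that gained a centre nucleosome (left) or lost both flanks (right) in each knockout library, by factor peak within 1 kb. Points are shares and bars are 95% Clopper-Pearson intervals. Pairs without a peak (red) lie lowest for flank loss in the Cdx2-Hnf4a-titled library, at 13.0%, and highest in Hnf4a knockout, at 7.42%.

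The differences in flank loss were also seen among pairs of similar nucleosome score. Within the lowest quartile of all pairs by weaker flank score, pairs without and with a factor lost both flanks at 16.9% and 23.1% in Cdx2 knockout and at 16.8% and 12.6% in Hnf4a knockout. In the libraries titled Cdx2-Cdx1 and Cdx2-Hnf4a they did so at 19.9% and 25.05%, and at 24.5% and 39.4%. In quartiles 2 and 3 every difference kept its direction, with intervals that did not hold 0. In the highest quartile few pairs lost both flanks, and in Cdx2 knockout the difference was −0.09 points (−0.39 to 0.19). It was 0.36 points (0.02 to 0.68) in Hnf4a knockout, −0.49 (−0.94 to −0.06) in the Cdx2-Cdx1-titled library and −2.84 (−3.49 to −2.21) in the Cdx2-Hnf4a-titled library, where the shares were 2.41% and 5.25%.

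Among the pairs without a factor peak, spacing went with gain of a centre and flank score with loss of the flanks. In Cdx2 knockout a centre appeared at 7.84% of pairs spaced 250 to under 300 bp, 14.3% at 300 to under 350 bp, 21.9% at 350 to under 400 bp and 24.9% at 400 to 450 bp. Hnf4a knockout gave 8.57%, 14.9%, 20.4% and 21.5%. The Cdx2-Cdx1-titled library gave 8.91%, 14.5%, 19.2% and 21.0%, and the Cdx2-Hnf4a-titled library 8.89%, 14.7%, 21.4% and 22.7%. Shares among pairs with a factor peak also increased with spacing, over a smaller range in all 4 libraries. They ran over the same bins from 9.03% to 19.2% in Cdx2 knockout, 10.3% to 21.0% in Hnf4a knockout, 11.4% to 20.3% in the Cdx2-Cdx1-titled library and 10.8% to 20.2% in the Cdx2-Hnf4a-titled library. The difference in range was not tested. Flanks close together leave little room for a further nucleosome, as neighbours most often lay 185 bp apart in wild type. Part of the rise with spacing is therefore built into the geometry of the pairs, and how much was not tested. Spacing changed the loss of both flanks little, between 7.04% and 8.53% in Cdx2 knockout.

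Loss of both flanks was rarer the higher the weaker flank had scored in wild type. From the lowest to the highest quartile of the 35478 pairs, the share was 17.4%, 9.03%, 3.27% and 0.72% in Cdx2 knockout. It was 17.3%, 8.06%, 2.82% and 1.24% in Hnf4a knockout and 20.5%, 11.7%, 5.13% and 1.49% in the Cdx2-Cdx1-titled library. The Cdx2-Hnf4a-titled library had 25.2%, 16.5%, 7.71% and 2.43%. A flank also counts as lost when its score falls under 52, and the lowest quartile had a median weaker score of 65.3. Part of this order is therefore built into the score limit, and how much was not tested. Strong pairs seldom lost both flanks, but they did change in other ways. In the highest quartile 80.5%, 76.1%, 75.4% and 75.7% kept both flanks with nothing between them in Cdx2 knockout, Hnf4a knockout and the libraries titled Cdx2-Cdx1 and Cdx2-Hnf4a, and 8.79%, 7.95%, 7.38% and 8.38% were filled between kept flanks. Centre gain varied less with score, between 16.5% and 11.8% in Cdx2 knockout.

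Distance to the nearest factor peak beyond 1 kb went with flank loss, most in the libraries lacking Cdx2, and with centre gain. In the Cdx2-Hnf4a-titled library both flanks were lost at 16.8% of the 13651 pairs with a peak 1 to 5 kb away. At 5 to 20 kb it was 11.7% and at 20 to 100 kb 9.08%. The first group exceeded the last by 7.75 points (6.85 to 8.63), and by between 2.76 and 11.2 points within each quartile of flank score. In Cdx2 knockout the first and last of these shares were 9.21% and 6.19%, a difference of 3.02 points (2.29 to 3.72). In the Cdx2-Cdx1-titled library they were 11.1% and 8.49%, a difference of 2.66 points (1.85 to 3.46). In Hnf4a knockout they were 7.94% and 7.06%, a difference of 0.88 points (0.16 to 1.60). From the lowest to the highest score quartile this difference in Hnf4a knockout was 0.70 points (−1.40 to 2.76), 1.39 (−0.14 to 2.84), 0.17 (−0.76 to 1.02) and 0.76 (0.14 to 1.35). Only the last interval did not hold 0. The 1156 pairs over 100 kb away did not extend the order, with 9.69% in the Cdx2-Hnf4a-titled library, 6.75% in Cdx2 knockout, 10.8% in the Cdx2-Cdx1-titled library and 8.22% in Hnf4a knockout. Median scores of the weaker flank were close at the nearer distances, 155.9 at 1 to 5 kb and 164.1 at 20 to 100 kb. The median spacings there were 325 and 315 bp. Centre gain was also higher at 1 to 5 kb than at 20 to 100 kb. The difference was 2.16 points (1.17 to 3.12) in Cdx2 knockout and 3.88 (2.91 to 4.83) in Hnf4a knockout. It was 3.04 (2.09 to 3.98) and 2.59 (1.60 to 3.56) in the libraries titled Cdx2-Cdx1 and Cdx2-Hnf4a. In the lowest score quartile the intervals in Cdx2 knockout and the Cdx2-Hnf4a-titled library held 0. The comparison by distance was not split by spacing, with which centre gain also went.

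**Figure D4:**
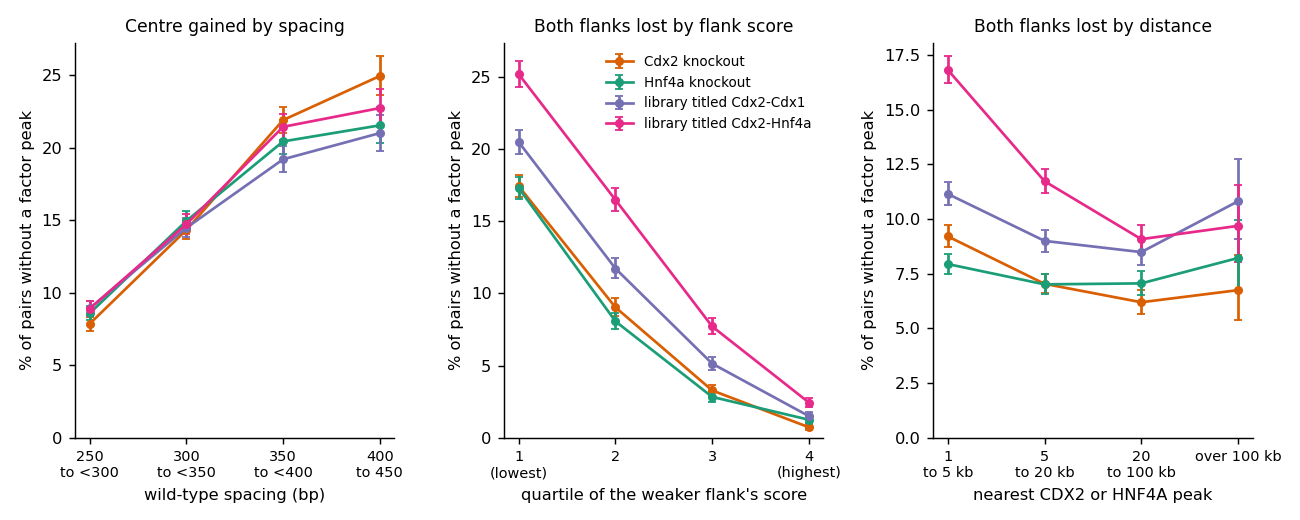
Pairs without a factor peak in each knockout library: centre gain by wild-type spacing (left), loss of both flanks by quartile of the weaker flank's wild-type score (middle) and by distance to the nearest CDX2 or HNF4A peak (right). Points are shares and bars are 95% Clopper-Pearson intervals. Centre gain in Cdx2 knockout runs from 7.84% to 24.9% with spacing, and flank loss in the Cdx2-Hnf4a-titled library from 25.2% to 2.43% with score.

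Pairs that stood alone lost their flanks more often. Of the 4453 pairs with no other wild-type nucleosome within 1 kb, 15.8% lost both flanks in Cdx2 knockout, 13.1% in Hnf4a knockout, 17.9% in the Cdx2-Cdx1-titled library and 25.4% in the Cdx2-Hnf4a-titled library. The 16899 pairs with 3 to 5 others lost both at 5.82%, 5.96%, 7.68% and 9.78%. Lone pairs were weaker, with a median score of 94.4 against 187.9. Within the lowest quartile of score the difference was still 10.6 points (8.36 to 12.8) in Cdx2 knockout and 14.8 points (12.3 to 17.3) in the Cdx2-Hnf4a-titled library. In the highest quartile it was −0.05 points (−0.58 to 1.58) in Cdx2 knockout, with 320 lone pairs, and the interval held 0 in every other knockout library too. In quartile 3 the interval held 0 in Cdx2 and Hnf4a knockout, and not in the double-knockout libraries. Lone pairs gained a centre less often, 9.66% against 16.5% in Cdx2 knockout, and less often in every quartile of score there. This comparison was not split by spacing, with which centre gain also went.

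Where flanks were kept, they stayed close to their wild-type places. Of the flanks of open pairs, 67.1% lay within 10 bp of the wild-type centre in Cdx2 knockout, 63.8% in Hnf4a knockout, 61.2% in the Cdx2-Cdx1-titled library and 63.6% in the Cdx2-Hnf4a-titled library. The median change of their spacing was 0 bp in all 4. Pairs that were filled had been wider in wild type, with a median spacing of 365 bp in Cdx2 knockout and in the Cdx2-Hnf4a-titled library and 360 bp in the other 2, against 315 bp for open pairs. Their flanks moved apart by a median of 5 bp in Cdx2 knockout and 10 bp in each of the other libraries. That filled pairs were wider follows in part from the room between flanks, and how much was not tested. The new nucleosome lay within 75 bp of the midpoint by definition, and kept flanks leave it little other room. Between kept flanks it lay within 25 bp of the midpoint in 66.7% of cases in Cdx2 knockout, 61.2% in Hnf4a knockout, 57.5% in the Cdx2-Cdx1-titled library and 62.8% in the Cdx2-Hnf4a-titled library. Where both flanks had gone it did so in 34.6%, 38.2%, 33.2% and 32.3%, where even placement over the 75 bp window gives 33.3%. In filled pairs the centre scored below both flanks in 53.4% of cases in Cdx2 knockout, and above both in 7.01%. Its median score there was 229.3, beside 232.9 for the weaker flank in the same library.

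Single pairs show the patterns behind these shares. They are among the 5 strongest by weaker wild-type flank within each pattern, so their scores describe the choice. The places are given as the files have them, in mm9, and the genes around them were not analysed here. Pairs whose flanks stayed in all 4 libraries with nothing between them were the largest of these groups, 9742 pairs (27.5%), where 25.9% of all wild-type pairs behaved so. The first lay on chromosome 1, with flanks at 122161661 to 122161761 and 122162001 to 122162151. Both flanks were at the ceiling of the score, 3250, in all 4 knockout libraries and in wild type.

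A centre between kept flanks in all 4 knockout libraries was rare, 242 pairs (0.682%), near the 0.625% of all wild-type pairs. The strongest lay on chromosome 1, with flanks at 167693261 to 167693351 and 167693611 to 167693701. A nucleosome sat exactly on its midpoint, scoring 1642.0 in Cdx2 knockout, 889.7 in Hnf4a knockout, 1140.0 in the Cdx2-Cdx1-titled library and 1441.0 in the Cdx2-Hnf4a-titled library, with none in wild type. Its flanks scored between 2259.2 and 3250 in the knockout libraries and 3250 in wild type. The centre was in each library below both flanks. A pair on chromosome 7 at 79450961 to 79451451 was alike, with centre scores of 1259.3, 1479.3, 824.5 and 1040.4 in those libraries.

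A centre between kept flanks in all 3 libraries lacking Cdx2, but no centre in Hnf4a knockout, was found at 188 pairs (0.530%), close to the 0.492% of all wild-type pairs. The strongest spanned 54788041 to 54788511 on chromosome 13, 7.80 kb from the nearest factor peak. Its centre scored 506.9 in Cdx2 knockout, 255.4 in the Cdx2-Cdx1-titled library and 627.4 in the Cdx2-Hnf4a-titled library. No centre was called in Hnf4a knockout or in wild type. On chromosome 10, at 119989491 to 119989961 and 29.0 kb from a peak, the centre scored 1778.6 in Cdx2 knockout and 421.9 and 587.7 in the libraries titled Cdx2-Cdx1 and Cdx2-Hnf4a.

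Loss of both flanks in the 3 libraries lacking Cdx2, with both kept in Hnf4a knockout, was found at 353 pairs (0.995%), below the 1.39% of all wild-type pairs. A pair on chromosome 6 at 40013391 to 40013841 had flank scores of 699.3 and 581.3 in Hnf4a knockout and 660.3 and 613.3 in wild type. Within 1 kb of it no nucleosome was called in Cdx2 knockout or in either double-knockout library, against 5 in Hnf4a knockout and 6 in wild type. It lay 1.90 kb from the nearest factor peak. A pair on chromosome 4 at 80922141 to 80922581, 15.0 kb from any peak, likewise had 0 nucleosomes in those 3 libraries, 3 in Hnf4a knockout and 5 in wild type. At both places the whole cluster was missing, and not the flanks alone. The strongest of this pattern, on chromosome 9 at 70987901 to 70988311, had 1 nucleosome left in each of the 3, near the midpoint or beside it. Its score was 94.6 in Cdx2 knockout and 122.4 in the Cdx2-Hnf4a-titled library.

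**Figure D5:**
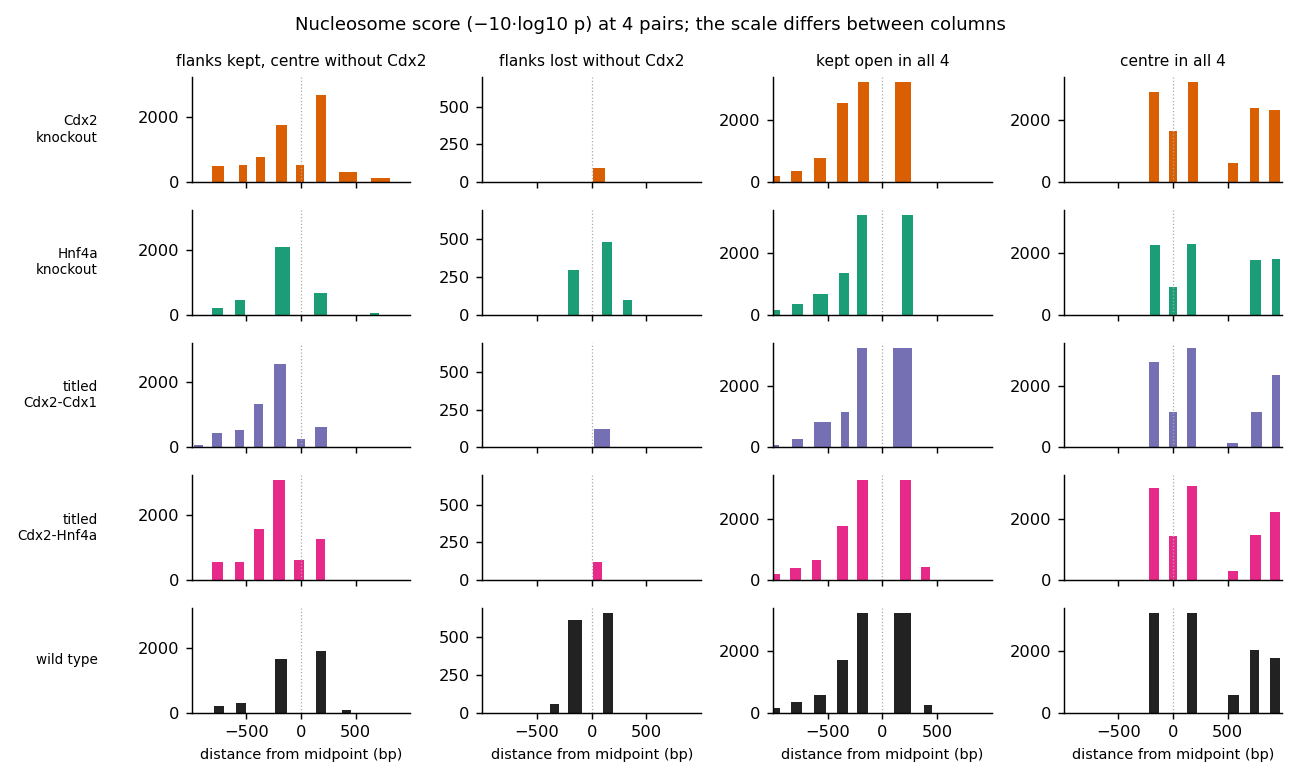
Called nucleosomes at the strongest pair of 4 patterns, by distance from the wild-type midpoint (dotted). Rows are the 4 knockout libraries and, at the bottom, wild type; bar height is the nucleosome score and bar width the called length. The second column shows a pair whose flanks, 617.2 and 661.9 in wild type, were lost in the 3 libraries lacking Cdx2, and the fourth a centre of 889.7 to 1642.0 in all 4.

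Both flanks were lost in all 4 knockout libraries at 394 pairs (1.11%), close to the 1.06% of all wild-type pairs, and the 5 strongest differed from each other. The first, on chromosome 13 at 46831591 to 46832111, had wild-type flanks of 3250 and 2843.6. A nucleosome 67.5 bp left of its midpoint scored 1835.2 in Cdx2 knockout and 1089.2 in Hnf4a knockout, while neither double-knockout library had a centre there. All 4 libraries had between 4 and 7 nucleosomes within 1 kb of it, against 6 in wild type. At the second, on chromosome 8 at 67653071 to 67653441, a single nucleosome stood near the midpoint in each knockout library. It scored 836.4 in Cdx2 knockout, 348.0 in Hnf4a knockout, 812.8 in the Cdx2-Cdx1-titled library and 1214.7 in the Cdx2-Hnf4a-titled library, where the wild-type flanks had 472.4 and 398.9. The third, on chromosome 15 at 101837561 to 101837971, had no centre in Cdx2 or Hnf4a knockout, and centres of 131.6 and 480.8 at 55.0 bp left and right of the midpoint in the libraries titled Cdx2-Cdx1 and Cdx2-Hnf4a. At the fourth, on chromosome 7 at 146435641 to 146436071, the centre scored 903.4, 612.3, 1649.4 and 2893.0 in those libraries, in the same order, where the wild-type flanks had 325.3 and 428.3. At the second and the fourth the centre scored higher than either wild-type flank in all 4 libraries, except in Hnf4a knockout at the second. At the fifth, on chromosome 8 at 15839891 to 15840271, no centre was called, and 1, 1, 0 and 2 nucleosomes remained within 1 kb, against 7 in wild type.

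In Hnf4a knockout alone both flanks were lost at 1087 pairs (3.06%), where 2.51% of all wild-type pairs had that pattern. The strongest lay on chromosome 8 at 11634581 to 11634941, where a centre of 2122.2 stood in Hnf4a knockout and flanks of 1422.6 and 1441.4 in wild type. The Cdx2-Cdx1-titled library had a centre of 2080.2 at that pair too, and kept 1 flank. The Cdx2-Hnf4a-titled library had one of 1592.2 between kept flanks of 2118.6 and 1023.0, so a centre was missing from Cdx2 knockout but not from the other 3. On chromosome 7 at 105342441 to 105342811 neither centre nor flank was called in Hnf4a knockout, although 6 nucleosomes lay within 1 kb, against 7 in wild type, where the flanks scored 1753.8 and 1332.5. Filling between kept flanks in a single knockout library only was found at 791 pairs (2.23%) for Cdx2 knockout, 719 (2.03%) for Hnf4a knockout, 452 (1.27%) for the Cdx2-Cdx1-titled library and 602 (1.70%) for the Cdx2-Hnf4a-titled library. Among all wild-type pairs the shares were 2.06%, 2.25%, 1.46% and 1.55%. The strongest in Cdx2 knockout, on chromosome 11 at 3032481 to 3033011, had a centre of 1700.3 there.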

How the data were processed

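H3K4me2 ChIP-seq nucleosome lists of 5 libraries and 5 factor peak lists were used as deposited by the authors; the input library was not analysed here. The nucleosome score is 10 times the −log10 of a p-value per the file headers, with a ceiling of 3250. The deposited peak score was not used. Build mm9 is named in the submitters' processing notes; the sources used here do not give caller, aligner or read depth. All lists were cut at a score of 52, because the Hnf4a knockout list reaches lower than the others. Pairs, centres within 75 bp and flanks within 50 bp were found with Python 3.11.15, numpy 2.4.6, pandas 2.3.3 and scipy 1.17.1, and the procedure was checked on simulated lists. Groups follow the titles. No value column was left unmapped to a sample (0). For each pattern of kept and lost flanks, up to 5 pairs with the highest weaker wild-type flank score, at least 10 kb apart, could be named (2 for a single library). The members, patterns and strata were chosen with earlier results of these data known. Each result was recomputed under 10 alternatives. Sequences, motifs and genes at the pairs were not analysed here, as no mm9 genome or annotation was used.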

Additional observations from a re-analysis of the deposited data

How the results depend on the processing

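Loss of both flanks without a factor peak minus that with one kept its direction and an interval without 0 in all 4 knockout libraries under all 10 alternatives, 40 in all. Differences in centre gain were less stable. In the Cdx2-Hnf4a-titled library the difference of −0.06 points became 0.25 at scores of 100 or more, 0.45 with lists of equal length, 0.73 with a centre window of 50 bp, 1.47 at spacings of 300 to 400 bp and 0.0029 with each nucleosome used once. With no factor peak within 5 kb it became −0.89. In Hnf4a knockout the same difference of −0.31 became 0.32 at scores of 100 or more, 1.18 at spacings of 300 to 400 bp and −1.48 with no peak within 5 kb. In the Cdx2-Cdx1-titled library the difference of −1.48 became −0.59 and −0.47 at those scores and spacings, with intervals that held 0; with lists of equal length it became −0.85, and −2.35 with no peak within 5 kb. In Cdx2 knockout the difference of 1.55 became 0.81 with no peak within 5 kb and 3.27 at spacings of 300 to 400 bp. For loss of both flanks, the difference of 2.42 in Hnf4a knockout became 1.04 with knockout lists as deposited, and that of −1.78 in the Cdx2-Cdx1-titled library −2.81 at scores of 100 or more.

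Between the forward and reverse readings, 75 of 80 alternatives kept direction and side. Hnf4a knockout differed in loss of both flanks by 0.81 points at scores of 100 or more, −0.31 with lists of equal length, −0.36 with no peak within 5 kb and −40.4 with knockout lists as deposited, beside −1.18. Its centre gain differed by 8.96 points with knockout lists as deposited, beside −4.25; that list then holds 485509 nucleosomes. The Cdx2-Hnf4a-titled library differed in centre gain by 0.19 points with lists of equal length, beside 2.36. Centre gain in the Cdx2-Cdx1-titled library differed by −3.54 points at scores of 100 or more and −0.85 with knockout lists as deposited, beside −1.72. Lists of equal length moved the flank differences of Cdx2 knockout and the libraries titled Cdx2-Cdx1 and Cdx2-Hnf4a to −1.90, −3.87 and −5.09, beside −4.18, −11.0 and −11.2. The causes were not tested. Shares of pairs with a centre ran from 10.8% to 19.4% and with both flanks lost from 3.88% to 15.0% over alternatives and libraries. Without wild-type CDX2 library 1 or 2, the flank difference in Cdx2 knockout was between −2.11 and −0.85 points. No paired analysis was possible because each H3K4me2 group has 1 library. Unknown depth and single libraries limit every value: a nucleosome under the score limit counts as lost, and nothing separates a knockout from the library that stands for it.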

Other observations

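The X chromosome held more pairs away from both factors. Of its 980 wild-type pairs, 793 (80.9%) had no factor peak within 1 kb, against 59.4% of the 58374 autosomal pairs, a difference of 21.5 points (18.9 to 23.9). The fate of these pairs was not detectably different on X, where the intervals of all 8 differences in centre gain and flank loss held 0. In Cdx2 knockout 6.94% of X pairs and 7.67% of autosomal pairs lost both flanks. Over the 19 autosomes loss of both flanks ranged from 6.01% to 9.72% in Cdx2 knockout, 5.99% to 8.83% in Hnf4a knockout, 7.77% to 11.5% in the Cdx2-Cdx1-titled library and 11.0% to 15.2% in the Cdx2-Hnf4a-titled library.

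A few pairs lay on the mitochondrial chromosome, whose DNA carries no histones. The rule found 0 such pairs in Cdx2 knockout, 12 in Hnf4a knockout, 10 in the Cdx2-Cdx1-titled library, 1 in the Cdx2-Hnf4a-titled library and 6 in wild type. The lists held 6, 32, 31, 5 and 25 mitochondrial nucleosomes in that order. The wild-type ones in pairs had weaker scores of 61.7 to 227.9, well inside the range of the nuclear pairs. Called nucleosomes on the Y chromosome numbered 74, 129, 92, 73 and 101.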
